A study of Rattus norvegicus with 12 samples.

Results

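The genes described here are 10 markers of T cells and natural killer (NK) cells, measured in rat liver along a course of chemically induced liver cancer. They are Cd3d, Cd3e, Cd3g, Cd2, Cd8a and Lck of T cells, and Ccl5, Prf1, Nkg7 and Klrd1 of cytotoxic lymphocytes. The members were all probe sets that the platform annotation assigns to exactly 1 of these symbols, which gave 10 of 14217 genes and 13 of the 31042 probe sets tested. Cd8a had 3 probe sets, Cd3e had 2 and each other gene had 1. The rule used no measured value, although the genes were listed with earlier results of these data known.

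RNA of adult male Sprague-Dawley rats was hybridised to 12 single-colour Affymetrix rat expression arrays, with 4 groups of 3. Control rats were injected with distilled water. The schedule for the other rats was 70 mg/kg of the liver carcinogen diethylnitrosamine (DEN) into the peritoneum once a week for 10 weeks. At each time point 12 rats were killed. The hepatitis group was taken at the end of week 5, the cirrhosis group at weeks 13 to 14 and the hepatocellular carcinoma (HCC) group at weeks 23 to 24 after DEN, and the labels give no time for the controls. If weeks were counted from the first injection, the hepatitis group was taken within the 10 weeks of dosing. The amount of DEN received and the stage then cannot be told apart in comparisons with hepatitis. All 12 arrays carry the tissue label liver, while the series design speaks of HCC tissue for the last group, so tissue, time after DEN and disease stage cannot be told apart for HCC against the earlier stages. Since no label ties each array to a rat of its own, the p-values reflect the spread among these 12 samples, part of which may be technical. The number of arrays limits the precision of every value.

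T cells recognise antigen through a receptor whose signalling chains are the CD3 proteins, encoded by Cd3d, Cd3e and Cd3g. The kinase Lck, held at the cell membrane by the coreceptors CD4 or CD8, phosphorylates those chains when the receptor binds its ligand, and CD2 is an adhesion receptor of T and NK cells. Cytotoxic T cells and NK cells kill through perforin, the pore-forming protein encoded by Prf1, stored in granules whose membrane carries the protein of Nkg7. Klrd1 encodes CD94, which pairs with NKG2 proteins as a receptor on NK cells, and Ccl5 encodes a chemokine that attracts T cells and monocytes. The liver holds a large resident population of NK and T cells beside its Kupffer cells, which are the resident macrophages.

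Facts on the arrays bear on several results. The arrays had medians of 28.69 to 30.94 (intensity, arbitrary units) and 33.9% to 35.8% of their values under 16. The signal at the 3' end of Gapdh exceeded that at its 5' end, a gap that widens as RNA degrades. The gap was 1.35, 2.43 and 3.14 (log2) on HCC replicates 1, 2 and 3, and 0.38 to 1.02 elsewhere. For beta-actin it was 3.82, 4.28 and 4.85 on HCC replicates 1, 2 and 3, and 2.14 to 2.69 elsewhere. The hepatocyte list of 10 genes averaged 10.21, 11.42 and 10.37 (log2 scale) on HCC replicates 1, 2 and 3, against 12.08 to 12.46 on the other 9 arrays. The proliferation list of 8 genes averaged 8.59, 7.20 and 8.25 on those HCC replicates and 6.10 to 7.25 elsewhere. HCC replicate 2 thus lay nearest the other groups in both lists. The part of RNA quality and of tissue makeup in the results below was not tested. In bulk tissue, fewer cells of a type and less RNA per cell cannot be told apart.

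In HCC tissue 4 of the 13 probe sets were higher than in control liver and 1 was lower, past an adjusted p of 0.05 in limma's moderated test. The 4 were the T cell receptor chains Cd3g, Cd3e and Cd3d and the adhesion receptor Cd2, and the lower one was Ccl5. Over all probe sets 15.7% were called higher and 14.1% lower in this comparison, so calls were common in HCC. In either direction it was 29.8%. In hepatitis 0 of the 13 were past the threshold against control, where 2.95% of all probe sets were (1.42% higher, 1.53% lower). In cirrhosis it was also 0 of 13, against 3.62% (1.59% higher, 2.04% lower). With array weights, 2 of the 13 were called in hepatitis and 1 in cirrhosis against control, where 11.2% and 15.9% of all probe sets were called under that setting. Without adjustment 2 of the 13 in hepatitis (Cd3d and the brighter Cd3e probe set) and 0 in cirrhosis had a p under 0.05. Between cirrhosis and hepatitis the count was also 0 of 13, with 0.651% of all probe sets called (0.290% higher, 0.361% lower) and 0 of the 13 at an unadjusted p under 0.05. In a moderated F test over the 4 groups 5 of 13 were called, the same 5 probe sets, against 33.2% of all probe sets.

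**Figure D1:**
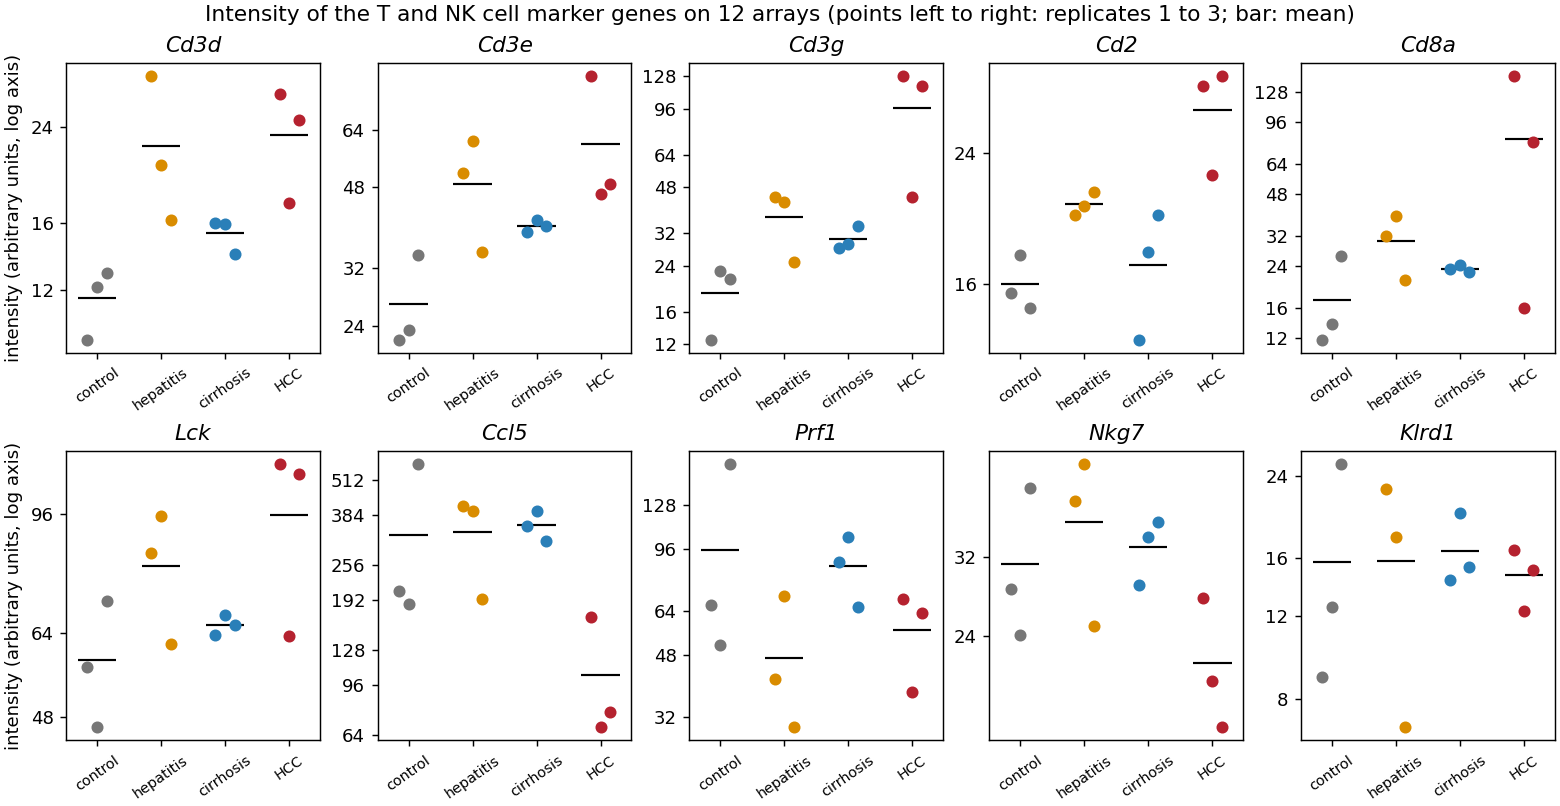
Intensity (arbitrary units, log axis) of the brightest probe set of each gene on the 12 arrays, with points for replicates 1 to 3 from left to right and a bar at the mean of each group. The HCC points of Cd3g lie above all others at 44.2 to 128, while those of Ccl5 lie below all others at 68.4 to 167.

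Cd3g, the gamma chain of CD3, had the largest difference from control of the 13 probe sets in HCC. Its intensity was 12.5, 22.9 and 21.3 on control replicates 1, 2 and 3, and 44, 42.1 and 24.8 in hepatitis. It was 28, 29.1 and 34 in cirrhosis and 128, 44.2 and 117 in HCC. Every HCC array lay above all 9 others, although HCC replicate 2 was just over the highest hepatitis array. The gene rose in HCC by 1.60 ± 0.30 over control (difference in log2(intensity + 16), standard error, n = 3 per group, limma adjusted p = 0.00351). It also rose by 1.18 ± 0.30 over cirrhosis (limma adjusted p = 0.0141) and by 1.01 ± 0.30 over hepatitis (limma adjusted p = 0.0317). The order of its group levels, low to high, was control, cirrhosis, hepatitis and HCC. The neighbours cirrhosis against control (adjusted p = 0.591) and cirrhosis against hepatitis (adjusted p = 0.959) did not differ past the threshold in limma's test. The call over control held whichever of the 12 arrays was left out. That over cirrhosis ended without HCC replicate 3 (adjusted p = 0.0511) and with only those groups fitted (0.0668). That over hepatitis ended without hepatitis replicate 2 (0.0591), hepatitis replicate 3 (0.105), HCC replicate 1 (0.0906) or HCC replicate 3 (0.105). It also ended with only those groups fitted (0.151), with array weights (0.0509) and with the replicate block (adjusted p = 0.0547).

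Cd3e, the epsilon chain, was measured by 2 probe sets that disagreed. The brighter probe set read 22.4, 23.5 and 34.2 in control, 51.4, 60.4 and 34.7 in hepatitis, 38.3, 40.7 and 39.6 in cirrhosis and 83.6, 46.3 and 48.7 in HCC. All HCC, cirrhosis and hepatitis arrays lay above all controls, with hepatitis replicate 3 just above control replicate 3. The gene rose in HCC by 0.80 ± 0.20 over control (limma adjusted p = 0.0137), and the hepatitis difference of 0.59 ± 0.20 did not pass (limma adjusted p = 0.168). The HCC call ended without control replicate 1 or control replicate 2 (adjusted p = 0.0512 for each), and with only those groups fitted (0.0631). The dimmer probe set stayed between 6 and 9.69 on all 12 arrays, and its HCC difference from control was -0.04. Against hepatitis its HCC difference was -0.12, with every HCC array below every hepatitis array (limma adjusted p = 0.0531). At such dim values the added constant of 16 leaves little room for any difference to show.

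Cd3d, the delta chain, read 9.74, 12.2 and 12.9 in control, 29.8, 20.4 and 16.2 in hepatitis, 16, 15.9 and 14 in cirrhosis and 27.6, 17.4 and 24.7 in HCC. Controls lay below every other array, and the highest single value was that of hepatitis replicate 1. Cd3d rose in HCC by 0.50 ± 0.13 over control (limma adjusted p = 0.0173), a call that ended without control replicate 1 (0.0622), HCC replicate 1 (0.0525) or HCC replicate 3 (0.0526), and with array weights (0.0507). The hepatitis difference over control was nearly as large, at 0.45 ± 0.13, and did not pass (limma adjusted p = 0.112). HCC and hepatitis differed by 0.05 (95% interval -0.24 to 0.34).

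Cd2 read 15.6, 17.5 and 14.9 in control, 19.8, 20.4 and 21.3 in hepatitis, 13.5, 17.7 and 19.8 in cirrhosis and 29.5, 22.4 and 30.4 in HCC. The 3 HCC arrays were the 3 highest, and the 3 hepatitis arrays lay just above or level with the highest cirrhosis array. Cd2 rose in HCC by 0.44 ± 0.09 over control (limma adjusted p = 0.00459) and by 0.40 ± 0.09 over cirrhosis (limma adjusted p = 0.00671). Against hepatitis the difference was 0.25 ± 0.09 (limma adjusted p = 0.0588). Both calls held whichever array was left out, and the one over cirrhosis ended with only those groups fitted (adjusted p = 0.0575).

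Lck was 56.9, 46.3 and 71.3 in control, 83.9, 95.4 and 61.6 in hepatitis, 63.5, 67.9 and 65.7 in cirrhosis and 114, 63.2 and 110 in HCC. HCC replicates 1 and 3 were the highest arrays, and HCC replicate 2 lay below control replicate 3. The HCC difference from control was 0.57 (95% interval 0.11 to 1.03) and did not pass (limma adjusted p = 0.061). It passed without HCC replicate 2, at 0.80 (adjusted p = 0.00472), with an added constant of 1 (0.0476), with the dimmest 30% of probe sets left out (0.0419) and with 1 probe set per gene (0.0493).

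Cd8a, the alpha chain of CD8, varied widely among the HCC arrays. The probe set brightest on average read 149, 16 and 79.1 on HCC replicates 1, 2 and 3, against 11.8, 13.7 and 26.5 in control. Hepatitis arrays read 31.9, 38.9 and 20.9 and cirrhosis arrays 23.2, 24.1 and 22.7. HCC replicate 2 thus lay among the controls while the other HCC arrays were the 2 highest of all 12. The HCC difference from control was 1.28 (95% interval 0.21 to 2.35, limma adjusted p = 0.0717). Without HCC replicate 2 it was 1.94 (adjusted p = 0.000531), and it also passed with the dimmest 30% of probe sets left out (0.0451) and with array weights (0.0469). The second probe set was high on HCC replicate 1 alone, at 78.1 against 16.3 and 18.5 on the others, and the third stayed between 9.69 and 15.2 everywhere. The first and second correlated at r = 0.81 over the 12 arrays, and the third correlated with them at 0.21 and 0.09.

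Of the 4 cytotoxic and NK genes only Ccl5 was called against control. Ccl5 read 207, 186 and 582 in control, 412, 395 and 194 in hepatitis, 351, 398 and 311 in cirrhosis and 167, 68.4 and 77.3 in HCC. The 3 HCC arrays were the 3 lowest, and control replicate 3 was the highest of all 12. Ccl5 fell in HCC by 1.70 ± 0.45 below cirrhosis (a difference of -1.70, limma adjusted p = 0.0172). Its differences were -1.56 ± 0.45 against hepatitis (limma adjusted p = 0.0281) and -1.41 ± 0.45 against control (limma adjusted p = 0.0413). Of the 5 calls between HCC and control this one ended most often. It held in 3 of the 12 fits with 1 array left out, those without control replicate 2, hepatitis replicate 3 or HCC replicate 1. Without control replicate 3 the difference was -0.91 (adjusted p = 0.12), and without HCC replicate 3 or HCC replicate 2 it was -1.27 (0.113) or -1.20 (0.103). Without control replicate 1, hepatitis replicates 1 or 2 or any cirrhosis replicate the adjusted p was 0.051 to 0.0604, and with the replicate block adjusted p = 0.0701. The call also ended with an added constant of 64 (adjusted p = 0.0621), with only those groups fitted (0.132) and with array weights (0.154). The call against hepatitis ended without hepatitis replicate 1 (0.0905), hepatitis replicate 2 (0.0921), HCC replicate 2 (0.0723) or HCC replicate 3 (0.0843). It also ended with only those groups fitted (0.0704), with array weights (0.0753) and with the replicate block (adjusted p = 0.0513). That against cirrhosis ended without cirrhosis replicate 2 (0.0573) or HCC replicate 3 (0.0557).

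Prf1 read 66.5, 51.4 and 168 in control, 41.1, 70.6 and 30 in hepatitis, 88.2, 104 and 65.8 in cirrhosis and 69.3, 37.7 and 63.2 in HCC. Of the 13 probe sets, this one alone had its highest group mean intensity in control, where replicate 3 stood far above the other arrays. Its HCC difference from control was -0.50 (95% interval -1.34 to 0.34) and its hepatitis difference -0.72 (95% interval -1.56 to 0.12), neither past the threshold (limma adjusted p = 0.368 and 0.409). Without control replicate 3 the hepatitis difference was -0.29 (adjusted p = 0.782).

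Nkg7 read 28.5, 24.1 and 41 in control, 39.1, 44.7 and 24.9 in hepatitis, 28.9, 34.3 and 36.3 in cirrhosis and 27.6, 20.4 and 17.3 in HCC. Every HCC array lay below every cirrhosis array, but the difference of -0.39 did not pass (limma adjusted p = 0.12). Its HCC difference from control was -0.31 (95% interval -0.70 to 0.07). Klrd1 was dim on all arrays, from 6.95 on hepatitis replicate 3 to 25.5 on control replicate 3, and its groups overlapped in all 6 comparisons. The HCC difference of Klrd1 from control was -0.01 (95% interval -0.49 to 0.47), so changes within those bounds were not resolved by 3 arrays a group.

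**Figure D2:**
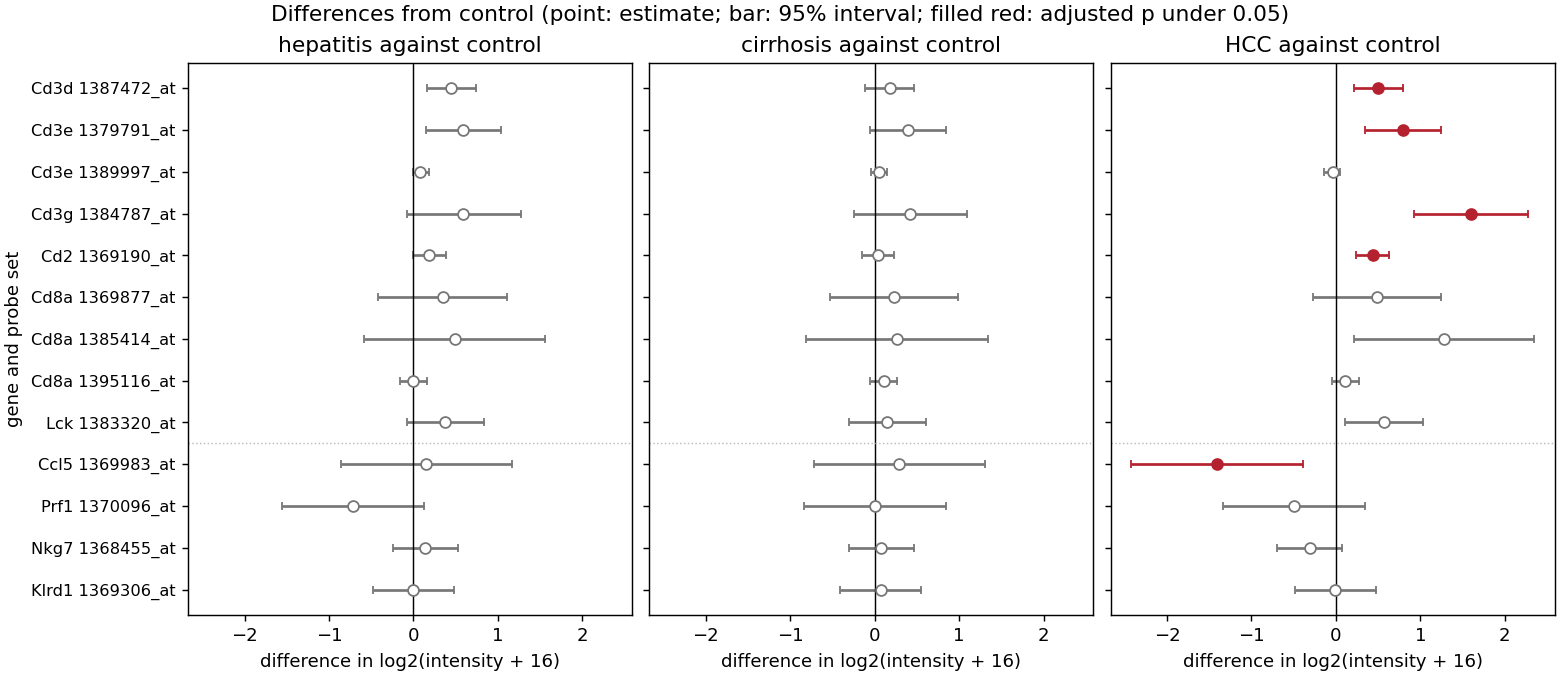
Difference from control in log2(intensity + 16) for the 13 probe sets at each stage, with 95% intervals, and filled red points where the adjusted p was under 0.05. T cell genes stand above the dotted line and cytotoxic and NK genes below it. In HCC the red points are Cd3d, 1 probe set of Cd3e, Cd3g and Cd2 to the right of 0 and Ccl5 to the left, and the hepatitis and cirrhosis panels hold 0 red points.

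Over all members, the median difference over the 13 probe sets was 0.19 in hepatitis, 0.15 in cirrhosis and 0.44 in HCC against control, where the medians of all probe sets were -0.01, -0.00 and 0.01. These 3 comparisons share their control arrays. In hepatitis all 3 arrays lay above all 3 controls for 5 of 13 probe sets, which was so for 12.8% of all probe sets, and in cirrhosis for 4 of 13, against 16.3%. In HCC 4 of 13 lay wholly above control, against 20.9%, and 1 wholly below, against 19.2%. The order control, cirrhosis, hepatitis, HCC, from low to high, held for the group means of 7 of 13 probe sets, all of them T cell genes. Those were Cd3d, Cd3g, Cd2, Lck, 1 probe set of Cd3e and 2 of Cd8a. The share of all probe sets with this order was not counted. These T cell genes also vary together over the arrays, so the 7 are not separate observations. The neighbours cirrhosis and hepatitis did not differ past the threshold in limma's test in any of these 7.

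HCC was also set against the other DEN stages. Against cirrhosis Cd3g and Cd2 were higher and Ccl5 was lower, 2 and 1 of 13, where 17.5% and 14.8% of all probe sets were called higher and lower (32.2% in either direction). All 3 HCC arrays lay above all cirrhosis arrays for 4 of 13 and below for 3 of 13, against 22.7% and 20.8%. Against hepatitis Cd3g was higher and Ccl5 lower, 1 and 1 of 13, against 15.5% and 13.4% (29.0% in either direction). HCC arrays lay wholly above hepatitis for 3 of 13 and wholly below for 2, against 20.2% and 17.2%.

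Single arrays stood out across the members. Control replicate 3 was the highest control array in 10 of 13 probe sets, and hepatitis replicate 3 was the lowest hepatitis array in 12 of 13. HCC replicate 1 was the highest HCC array in 11 of 13, and HCC replicate 2 the lowest in 11 of 13. The mean over the 10 genes, on the log2 scale, was 6.05 on control replicate 3 and 5.50 and 5.52 on the other controls. It was 6.05, 6.12 and 5.58 in hepatitis, 5.84 to 5.95 in cirrhosis and 6.36, 5.57 and 6.04 on HCC replicates 1, 2 and 3. Without control replicate 3 Cd3d, Cd3e, Cd3g and Cd2 were still called higher in HCC than in control, and Ccl5 was not called.

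**Figure D3:**
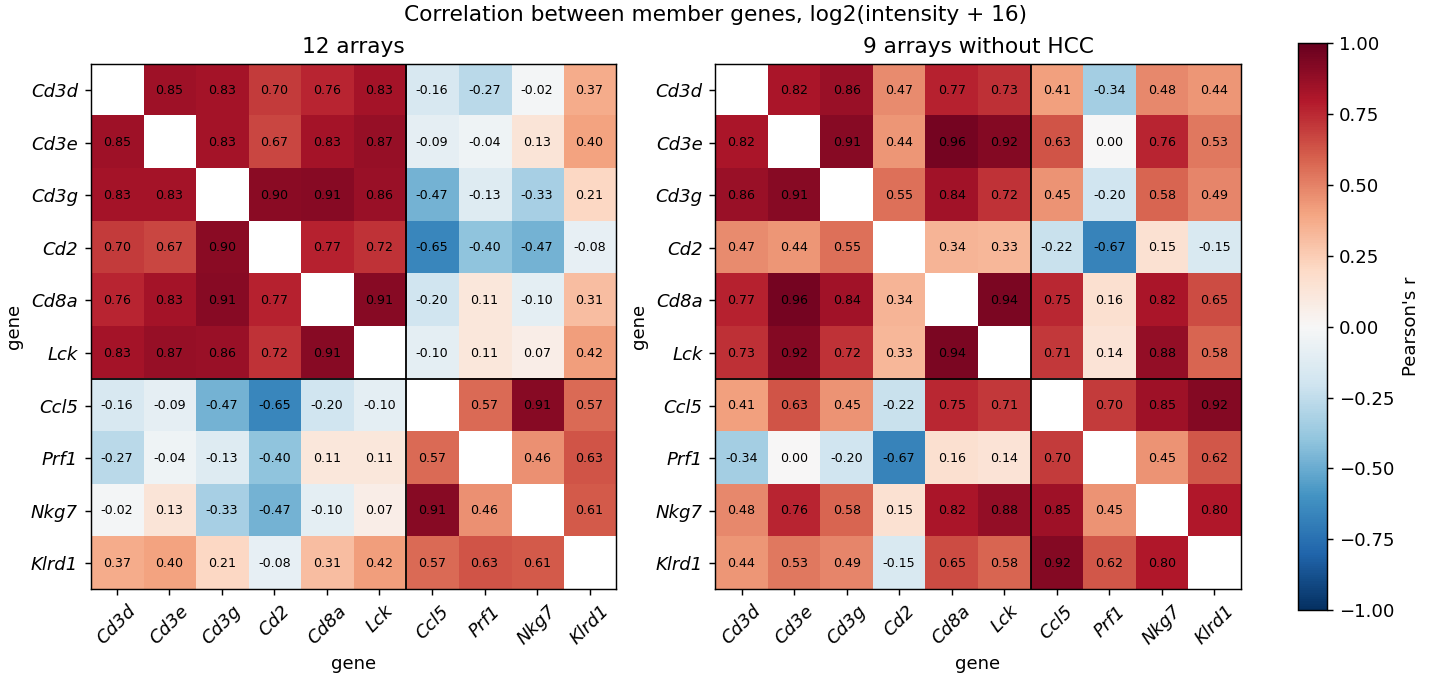
Pearson's r of log2(intensity + 16) between the 10 genes over all 12 arrays (left) and over the 9 arrays without HCC (right), with a black line between T cell genes and cytotoxic and NK genes. The upper left block is positive throughout in both panels, and the blocks between the 2 kinds of gene hold both signs.

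Correlations between the genes are a description of arrays that also share depth of signal and tissue makeup. Among the 6 T cell genes (1 probe set per gene, the brightest) the 15 pairs had a median r of 0.83 over the 12 arrays, from 0.67 to 0.91. The 6 pairs among Ccl5, Prf1, Nkg7 and Klrd1 had a median of 0.59, from 0.46 to 0.91. Between T cell genes and these 4 the 24 pairs had a median of -0.08, from -0.65 for Cd2 with Ccl5 to 0.42 for Lck with Klrd1. The HCC arrays stand apart from the rest, so r was also taken over the other 9 arrays. There the medians were 0.77 among T cell genes, 0.75 among the cytotoxic and NK genes and 0.46 between them, with 18 of the 24 pairs above 0. On deviations from the group means they were 0.66, from 0.13 to 0.90, among T cell genes, 0.82 among the cytotoxic and NK genes and 0.57 between them, with 20 of 24 above 0. Without the differences between groups, the pairs between both kinds of gene thus lay closer to the pairs within each kind.

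The genes most like the mean of the 10 members over the 12 arrays, among 9909 other genes with a mean intensity above the array median, were Cmtm7 (r = 0.91), Wipf1 (0.90), Ptprc (0.90), Prr13 (0.89) and Leprot (0.89). Ptprc encodes CD45, the phosphatase on the surface of all leukocytes, and Wipf1 a partner of the Wiskott-Aldrich syndrome protein of blood cells. Their r on deviations from group means was 0.89 to 0.96. The same measure for single genes was picked with its values known. For Cd3g the closest were Smarca5, Kif5b and Khdrbs1 (r = 0.99, 0.98 and 0.98), which are widely expressed genes and no markers of T cells. For Ccl5 they were Pla2g4a, Plek and the complement gene C1qa of macrophages (0.96, 0.95 and 0.95). Plek was also the closest to Nkg7 (0.92). The closest to Cd3e was Lcp1 (0.96), to Lck Sash3 (0.96), to Prf1 Gbp7 (0.87) and to Cd8a Ran (0.98).

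Other genes of T and NK cells were read from lists. T cell receptor signalling had 5 of 18 measured genes higher in HCC than in control and 0 lower, where 19.1% and 18.3% of all genes were. Its median difference was 0.25, against 0.01 over all genes. Nfatc2, a transcription factor switched on by calcium signals, rose by 1.13 ± 0.15 (limma adjusted p = 0.000609), the phosphatase Ptpn22 rose by 0.67, and the adaptor Lat, which links the receptor to its downstream enzymes, rose by 0.52. Prkcq, a protein kinase C of T cells, rose by 0.43. In hepatitis and cirrhosis 0 of these 18 were called against control by limma, and 3 and 1 had an unadjusted p under 0.05.

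T cell surface and costimulation genes had 5 of 16 higher and 1 lower in HCC, against the same 19.1% and 18.3% of all genes, with a median of 0.06. Spn (CD43) rose by 0.74, the costimulatory receptor Tnfrsf4 (OX40) rose by 0.65 and Cd5 rose by 0.55. Tnfrsf9 (4-1BB), another costimulatory receptor, had 80 ± 41.7 in HCC and 300 ± 51.5 in control (intensity, SD, n = 3 each), a difference of -1.79 (limma adjusted p = 0.00164). In cirrhosis too Tnfrsf9 was below control, at -2.14 (limma adjusted p = 0.0074). Il7r, the receptor for interleukin 7, rose by 0.54 in hepatitis and by 0.52 in cirrhosis (limma adjusted p = 0.0295 and 0.0333). These were 1 of 16 genes higher in hepatitis and 1 higher and 1 lower in cirrhosis, where 1.72% of all genes were higher in hepatitis, and 1.65% higher and 1.99% lower in cirrhosis. Of the inhibitory receptors listed only Ctla4 was measured, at 14.2 ± 0.154 in HCC and 13.4 ± 0.795 in control (SD, n = 3 each), and it was called in no comparison.

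Transcription factors of T and NK cells had 5 of 11 higher and 2 lower in HCC than in control, where 19.1% of all genes were higher and 18.3% lower. Runx1, which is also active in other blood cells, rose by 1.01, Tcf7 by 0.76 and its relative Lef1 by 0.48, both of them factors of naive T cells that also act in Wnt signalling of other tissues. Id2, an inhibitor of DNA-binding factors that hepatocytes also express, fell by 0.87 in HCC (limma adjusted p = 0.021) and rose by 1.13 in hepatitis (limma adjusted p = 0.0369), 1 of 11 against 1.72% of all genes.

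Cytotoxic effector genes had 2 of 16 higher and 1 lower in HCC, with a median of -0.03, and both shares were below those of all genes (19.1% and 18.3%). Cst7, an inhibitor of granule proteases, rose by 0.89, Lamp1, a lysosomal protein of most cells, rose by 0.30 and the death ligand Tnfsf10 fell by 0.75. The granzyme genes Gzma and Gzmb are given with their values already known. Gzma was 19.8, 19.8 and 17.6 on the HCC arrays and 34.9, 29.6 and 170 on control replicates 1, 2 and 3. Gzmb was 15.6, 14.1 and 16 in HCC and 17.9, 16.7 and 42.8 in control, so control replicate 3 was again the highest. Receptors of NK cells and lymphocyte cytokines had 1 of 16 higher and 1 lower in HCC, also below those shares, with a median of 0.01. Il2rg, the shared chain of several interleukin receptors, rose by 1.22 (limma adjusted p = 0.00603), and Klrg1, an inhibitory receptor, fell by 0.81 (limma adjusted p = 0.0345) with overlapping arrays.

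Chemokines and receptors that guide T cells had 4 of 19 higher and 2 lower in HCC, against 19.1% and 18.3% of all genes, with a median of 0.28. Cxcl12, which retains cells bearing its receptor Cxcr4, had an intensity of 138 ± 86 in HCC and 1593 ± 145 in control (SD, n = 3 each), and fell by 3.52 (limma adjusted p = 0.000191). Cxcr4 rose by 0.98 and the membrane-bound chemokine Cx3cl1 by 0.95, while S1pr1, a receptor for exit from lymphoid tissue, fell by 1.30 with overlapping arrays. Ccl21, which draws naive T cells and dendritic cells, rose by 1.61 in hepatitis and by 1.98 in cirrhosis (limma adjusted p = 0.00134 and 0.000835), 1 of 19 at each stage, against 1.72% and 1.65% of all genes.

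Markers of other cell types changed too. Macrophages and platelets can also express or carry Ccl5. Of 12 measured macrophage and Kupffer cell genes 6 were lower and 1 higher in HCC than in control, where 18.3% of all genes were lower and 19.1% higher. Their summed intensity ranged over 5490 to 10794 in control, 8810 to 11282 in hepatitis, 8362 to 8764 in cirrhosis and 3959 to 7862 in HCC. Clec4f, the defining receptor of Kupffer cells, was 334 ± 203 in HCC and 1661 ± 329 in control (SD, n = 3 each), and fell by 2.43 (limma adjusted p = 0.00118). The macrophage list was at its highest control mean on replicate 3 (9.29, against 8.43 and 8.29 on the log2 scale), the array with the highest Ccl5. This was not particular to macrophages. On the same array the cytotoxic effector list averaged 6.22, against 5.87 and 5.81 on the other controls. The NK receptor list averaged 5.84, against 5.38 and 5.36, and the pan leukocyte list 7.55, against 6.73 and 6.68. Of 7 platelet genes 2 (Itgb3 and Itga2b) were lower and 0 higher in HCC, against the same shares, and their median difference was 0.01. Their sums were 266 to 354 in HCC and 483 to 521 in control. Itgb3 averaged 112 in HCC and 270 in control, while Pf4 averaged 81.1 in HCC and 57.9 in control. Neither list held a gene listed at 0, and the part of these cells in the Ccl5 values was not tested.

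The pan leukocyte list had 2 of 14 genes higher and 1 lower in HCC, with a median of 0.27, where 19.1% of all genes were higher and 18.3% lower. Cd52, a leukocyte surface peptide, fell by 0.29, but was dim throughout, at 7.13 to 15.1 (intensity) on the 12 arrays. Lcp1, an actin-bundling protein of leukocytes, rose by 1.40 and Coro1a, another actin regulator, by 1.04, the last with overlapping arrays. Its mean was 7.55 on control replicate 3 and 6.73 and 6.68 on the other controls, 7.23 to 7.68 in hepatitis, 7.20 to 7.32 in cirrhosis and 6.95 to 7.68 in HCC. B and plasma cell genes had 2 of 10 higher in HCC, dendritic cell genes 2 of 6, neutrophil and mast cell genes 0 of 10 and MHC class I presentation genes 0 of 9, against the same 19.1%. By limma's p without adjustment, 0 of the 10 and 2 of the 9 were under 0.05 in either direction. The part of other leukocytes in the Cd2 and Lck values was not tested.

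**Figure D4:**
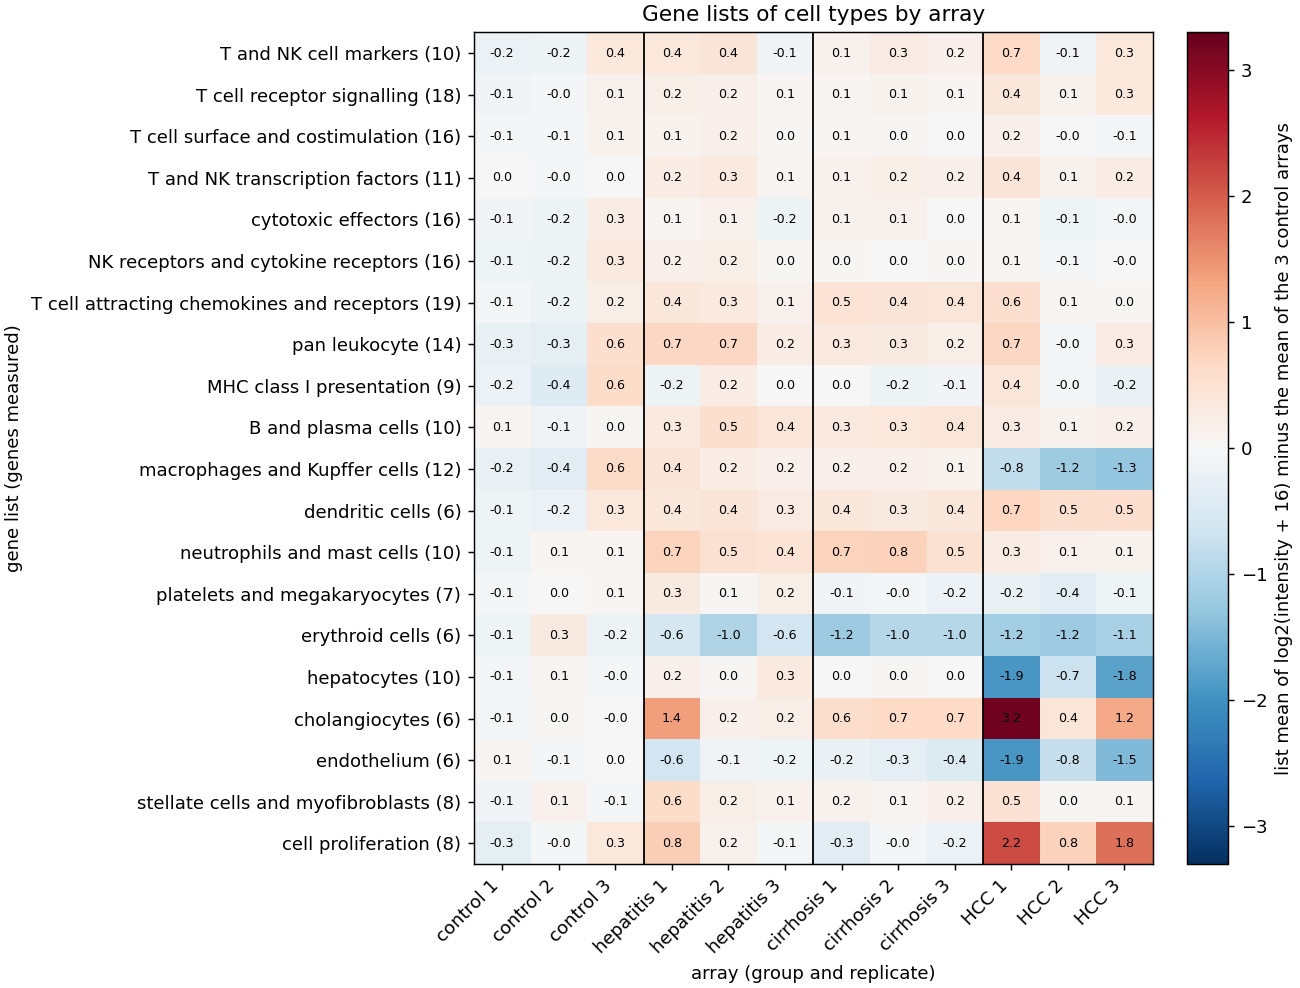
Mean of log2(intensity + 16) of each list on each array minus the mean of the 3 control arrays, with the number of genes measured in brackets. Red squares are above and blue squares below control. The row of the T and NK cell markers is highest on HCC replicate 1, and the macrophage, hepatocyte and endothelium rows are blue on all 3 HCC arrays.

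Start regions are shown for a pair of genes that were called higher in HCC than in control and a pair that were not called. RefSeq promoters of the rat assembly GRCr8 were matched for 8 of the 10 genes, and Ccl5 and Klrd1 had none in the table. Cd3g, Cd3d and Cd3e lie next to each other on chromosome 8. The windows printed are the 250 bases before the start, 5' to 3' on the gene's strand, of Cd3e and Cd2, which were called, and of Prf1 and Nkg7, which were not. Capitals mark matches to the motifs searched. They come from the reference strain, not from the rats measured.
Cd3e, chr8:54211771-54212020, minus strand: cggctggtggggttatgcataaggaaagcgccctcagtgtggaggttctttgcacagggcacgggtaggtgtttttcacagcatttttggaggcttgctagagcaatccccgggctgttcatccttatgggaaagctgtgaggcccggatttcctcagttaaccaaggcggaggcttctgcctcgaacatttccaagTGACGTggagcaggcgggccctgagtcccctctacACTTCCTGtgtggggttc
Cd2, chr2:191412660-191412909, minus strand: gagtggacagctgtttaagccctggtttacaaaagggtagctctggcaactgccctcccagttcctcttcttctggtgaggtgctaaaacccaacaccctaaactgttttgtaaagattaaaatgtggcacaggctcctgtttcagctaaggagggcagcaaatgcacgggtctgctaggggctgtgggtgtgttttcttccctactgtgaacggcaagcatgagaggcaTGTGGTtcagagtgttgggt
Prf1, chr20:29788790-29789039, plus strand: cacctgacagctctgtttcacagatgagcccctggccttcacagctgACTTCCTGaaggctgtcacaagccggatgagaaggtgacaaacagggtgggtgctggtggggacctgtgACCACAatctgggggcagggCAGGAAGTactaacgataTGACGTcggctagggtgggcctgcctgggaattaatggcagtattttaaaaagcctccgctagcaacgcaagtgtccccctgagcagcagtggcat
Nkg7, chr1:102981247-102981496, plus strand: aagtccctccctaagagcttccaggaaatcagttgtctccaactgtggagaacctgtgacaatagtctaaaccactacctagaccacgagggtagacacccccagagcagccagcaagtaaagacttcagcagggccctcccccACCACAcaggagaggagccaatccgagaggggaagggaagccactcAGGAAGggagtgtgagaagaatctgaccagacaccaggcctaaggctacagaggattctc
The motifs, read on both strands, were TGTGGT (the RUNX core), AGGAAG and its longer form CAGGAAGT (ETS factors), AGGTGTGA (T-box factors), GGGANTTCC and GGGNNTTCC (NF-kappaB), the interferon-stimulated response element (by a spaced core) and TGACGT (CREB family). AGGAAG was in 6 of the 8 member windows, against 29.4% of 27457 RefSeq windows of the same length, and it lies inside every CAGGAAGT match. The windows of Cd3d and Cd3g, which held AGGAAG, had 250 and 169 of their 250 bases inside the annotated gene. CAGGAAGT was in 3 of 8 (Lck, Cd3e and Prf1), against 2.51%. TGTGGT was in 4 of 8, namely Nkg7, Cd2, Lck and Prf1, against 14.1%, and TGACGT in 2 of 8, Cd3e and Prf1, against 7.25%. AGGTGTGA, GGGANTTCC, GGGNNTTCC and the interferon element had no match in the 8 windows, and were in 0.958%, 1.51%, 5.16% and 3.29% of all. A match is a description of letters and no evidence of binding, and both called and uncalled genes held ETS and RUNX letters.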

How the data were processed

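Per the labels' protocols, total RNA was isolated with TRIzol, labelled with biotin and hybridised to 1 array per sample. The authors deposited a linear intensity for every probe set on each array, and 0 columns were left out. MAS5 and RMA appear in the submitters' processing notes without a role or version, so the algorithm behind the intensities is not known here. The table held 31099 probe sets, of which 57 were array controls. Of the rest 20826 had 1 gene, 436 several and 9780 none, named from the platform annotation and checked against RefSeq genes of GRCr8, where 20758 were found and 0 symbols changed.

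Values were analysed as log2(intensity + 16), which damps dim values and understates their fold changes. Limma 3.58.1 (lmFit, eBayes, prior degrees of freedom 1.6) in R 4.3.3 fitted all 12 arrays and 31042 probe sets, with 6 pairwise contrasts and an F test, two-sided. Calls needed an adjusted p (Benjamini-Hochberg, all probe sets) below 0.05. The fit was tested on simulated data. Lists were counted on the brightest probe set of each of 14217 genes, with no list test. In each list up to 4 called genes with the largest absolute difference are named, or the gene with the smallest adjusted p, and any other gene is marked as picked with its values known. Errors of intensities are SD and those of differences SE. Python 3.11.15 with pandas 2.3.3, numpy 2.4.6 and matplotlib 3.10.9 made tables and figures. The alternatives were added constants of 1 and 64, leaving out the dimmest 30% of probe sets, quantile normalization, the 2 groups alone, array weights, 1 probe set per gene, a replicate block and leaving out each array. The members and lists were chosen with earlier results of these data known. No pair of arrays held identical values.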

Additional observations from a re-analysis of the deposited data

How the results depend on the processing

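Of the 13 probe sets the number called was 5 in HCC against control, 3 in HCC against cirrhosis and 2 in HCC against hepatitis, and 5 in the F test. With the 2 groups alone fitted these counts were 3, 1 and 0, where fewer arrays entered the fit. With array weights the count was 2 in hepatitis against control (Cd3d and Cd3e, adjusted p = 0.0184 and 0.0164), 1 in cirrhosis against control and 0 in HCC against hepatitis, while HCC against control held 4, with Cd3d and Ccl5 lost and Cd8a gained, and the cause was not tested. The F test called 2 with an added constant of 64. Leaving out 1 array gave 2 to 6 calls in HCC against control, 1 to 6 against cirrhosis, 0 to 3 against hepatitis, 2 to 6 in the F test, and 0 to 0 in the remaining 3 comparisons. In HCC against control the count was 2 without control replicate 1 and 3 without HCC replicate 3. Against cirrhosis it was 6 without HCC replicate 2 and 1 without HCC replicate 3. Against hepatitis it was 1 without hepatitis replicate 1, and 0 without hepatitis replicate 2 or HCC replicate 3. No called difference changed sign under any alternative run. Cd3g and Cd2 in HCC against control were called under all of them. With the replicate block the F test called 2, HCC against hepatitis 0, HCC against control 4 and HCC against cirrhosis 3, and the other comparisons 0. Same-numbered arrays of different groups deviated together in 2 of 18 pairs (r over 0.1, range -0.22 to 0.34). Deviations within a group of 3 arrays depend on one another, so this check cannot exclude a pairing by number. Over all probe sets the number called also moved. With the 2 groups alone it was 4994 (9237 with all groups) in HCC against control, 6499 (10008) against cirrhosis, 3793 (8990) against hepatitis, 4949 (1125) in cirrhosis against control and 466 (202) in cirrhosis against hepatitis. With array weights it was 3468 (916) in hepatitis against control, 4946 (1125) in cirrhosis against control and 1181 (202) in cirrhosis against hepatitis. With the block it was 717 (1125) in cirrhosis against control and 133 (202) in cirrhosis against hepatitis. With 1 probe set per gene, where fewer were tested, the counts were 568, 474, 5512, 5278, 4972 and 5746 in hepatitis, cirrhosis and HCC against control, HCC against cirrhosis, HCC against hepatitis and the F test. Dim signal limits the dimmer probe sets of Cd3e and Cd8a, and Klrd1. It also limits Cd2 and Cd3d, which were called in HCC. Cd2 was above the array median on 0 of the 12 arrays and under 16 on 3. Cd3d was above the array median on 1 and under 16 on 6.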

Other observations

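Lists of other cells held calls at stages where the T and NK cell markers held none, and their values are given here as measured. In hepatitis S100a9 and S100a8, calcium-binding proteins of neutrophils and monocytes, rose by 2.33 ± 0.40 and 2.30 ± 0.37 over control (limma adjusted p = 0.0161 and 0.0131). S100a8 averaged 432 ± 98.1 in hepatitis and 76.3 ± 27.4 in control (intensity, SD, n = 3 each). In cirrhosis the mast cell protease genes Mcpt1 and Cpa3 rose by 1.75 ± 0.27 and 1.53 ± 0.26 over control (limma adjusted p = 0.013 and 0.0184). Of the 10 neutrophil and mast cell genes 2 were higher in hepatitis and 3 in cirrhosis, against 1.72% and 1.65% of all genes. None was called lower at these stages, and the list medians were 0.14 and 0.32.

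Jchain, the joining chain of secreted IgA and IgM made by plasma cells, was above control at all 3 stages. It rose by 2.05 in hepatitis, 2.58 in cirrhosis and 1.85 in HCC (limma adjusted p = 0.0235, 0.0107 and 0.00579), comparisons that share their control arrays. Of its list of 10 B and plasma cell genes 2, 1 and 2 were higher at these stages, against 1.72%, 1.65% and 19.1% of all genes. The list's median HCC difference from control was -0.02. Against hepatitis 5 of the 10 were lower in HCC and 0 higher, where 13.4% and 15.5% of all probe sets were. Those 2 shares are of probe sets, while the list was counted by gene, so they are not a like measure. Of the 6 erythroid genes 4 were lower in HCC than in control and 1 was higher, where 18.3% of all genes were lower and 19.1% higher, and 4 were lower in cirrhosis, against 1.99%. Of the 8 genes of stellate cells and myofibroblasts 4 were higher and 1 lower in HCC, and of the 6 endothelial genes 3 were lower, against the same shares in HCC. Of the 6 cholangiocyte genes 1 was called higher in HCC than in control, a share near that of all genes, but the list median was 1.71. Without adjustment 5 of the 6 had a p under 0.05 in limma's test. The list averaged 8.78, 5.98 and 6.82 (log2 scale) on HCC replicates 1, 2 and 3, against 5.53 to 5.63 in control.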
